A study of Drosophila melanogaster with 2 samples.

Results

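The intronic peaks near a transcription start site (TSS) of a CG18476-eGFP map from Drosophila melanogaster embryos are described here. A peak was counted when its summit lay inside an annotated gene but in no annotated exon, more than 500 bp and at most 5000 bp from the nearest TSS of any gene. Of the 3995 peaks in the authors' thresholded set for the dm6 genome build, 978 met this rule, 24.5% (95% interval 23.2 to 25.8). The rule used position and no measured value. The other peaks were 2022 promoter peaks, with a summit within 500 bp of a TSS, 397 deep intronic peaks, more than 5000 bp from any TSS, 492 intergenic peaks and 106 peaks in exons outside promoters. The 978 peaks lay on X (228), 3R (218), 2R (180), 2L (149) and 4 (2), and the rest on 3L.

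The map came from chromatin immunoprecipitation and sequencing (ChIP-seq) of whole embryos of both sexes, collected from 0 to 24 h after laying. The flies were a transgenic line that stably expresses the product of the gene CG18476 with a green fluorescent protein (eGFP) joined to its C-terminus, and an antibody against GFP was used for the precipitation. There was 1 group, CG18476-eGFP embryos, with biological replicates 1 and 2 from the same line. The control used in peak calling was not analysed here, and whole embryos of this age range mix many tissues and stages, so a peak may come from any of them.

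Introns close to a TSS are where fly genes often carry regulatory DNA. Enhancers and alternative promoters are frequent in the first intron, which is usually the longest intron of a gene. A sequence-specific factor bound there leaves a peak whose summit lies over or beside its recognition sequence, and GAGA factor, Dref and BEAF-32 are well-studied factors of fly promoters and open chromatin. The summit is the base where the authors' caller placed the highest point of the peak, and its sequence can be read without any signal value.

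The deposited lists hold 30000 regions for each replicate and 30000 for the pooled reads. Sequencing depth is unknown from these lists, and signal values are the authors' own, on a scale they did not state. In the near-TSS intronic peaks the pooled signal divided by the sum of the replicates' signals had a median of 1.01, so values of replicates 1 and 2 are given beside the pooled one as the measure of spread. The thresholded set was selected by the authors for reproducibility with the irreproducible discovery rate (IDR), so its match with the replicates is no independent evidence. Intervals of shares and densities below count peaks, sequence or genes only.

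The sequences at the strongest summits show how different these sites were in base composition. The summit base and the 50 bases on each side of it are given on the forward strand of dm6, with sequence from the RefSeq assembly. The windows are chr2L:6612667-6612767 in CG11050, chr3R:10354372-10354472 in jumu, a forkhead factor gene, and chr2L:480992-481092 in ush, which encodes a zinc finger partner of GATA factors. A weaker but still strong site, chr3L:14759466-14759566 in Trl, the gene of GAGA factor, is shown since it holds a TATA element. Capitals mark the CA repeat CACACACA and the E-box CAGCTG in jumu and the reverse complement of TATAAAA in Trl.
CG11050: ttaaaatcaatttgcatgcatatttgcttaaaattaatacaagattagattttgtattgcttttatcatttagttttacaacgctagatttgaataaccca
jumu: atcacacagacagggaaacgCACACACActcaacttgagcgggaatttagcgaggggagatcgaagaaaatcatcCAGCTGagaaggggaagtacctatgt
ush: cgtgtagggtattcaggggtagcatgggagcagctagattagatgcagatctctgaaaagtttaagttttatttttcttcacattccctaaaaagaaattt
Trl: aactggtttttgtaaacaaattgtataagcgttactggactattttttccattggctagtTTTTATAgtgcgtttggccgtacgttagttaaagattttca
The G+C content of these windows was 23.8% at CG11050, 48.5% at jumu, 36.6% at ush and 32.7% at Trl.

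A pair of short words lay on one side of many summits, and 4 of the strongest sites with each are shown because the results on sequence rest on them. They were chosen after their values were seen. Each line gives the strand on which the word is spelled as written, 5′ to 3′, with the word in capitals, and on that strand the middle of the word lies the stated distance after the summit. The word CAGTGTA is shown at chrX:6549803-6549843 (minus strand, 70 bp after the summit) in CG34417, at chr3L:4824842-4824882 (minus, 67 bp) in Dhc64C, the dynein heavy chain gene, at chr3L:4228294-4228334 (minus, 69 bp) in ImpL2, which encodes a secreted insulin-binding protein, and at chr2L:19165047-19165087 (minus, 110 bp) in brat, a translational repressor gene.
CG34417: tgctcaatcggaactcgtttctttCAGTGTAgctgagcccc
Dhc64C: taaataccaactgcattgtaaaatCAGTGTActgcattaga
ImpL2: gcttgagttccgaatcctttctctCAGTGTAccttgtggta
brat: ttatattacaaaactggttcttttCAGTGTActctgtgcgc
The word CCACTGT is shown at chr3L:14759389-14759429 (minus, 114 bp) in Trl, chrX:13640572-13640612 (plus, 84 bp) in NFAT, a gene for a transcription factor of the NFAT family, chr2L:6647276-6647316 (plus, 95 bp) in CG31635 and chr2L:3655890-3655930 (plus, 92 bp) in for, which encodes a cGMP-dependent protein kinase.
Trl: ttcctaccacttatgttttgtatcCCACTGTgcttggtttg
NFAT: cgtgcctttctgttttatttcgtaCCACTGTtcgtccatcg
CG31635: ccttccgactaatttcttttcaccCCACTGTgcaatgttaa
for: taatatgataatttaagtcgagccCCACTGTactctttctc
The bases just before the words are mostly T and C in several of these sites, such as CG34417, ImpL2 and CG31635, and not in Dhc64C.

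A further word, ACCCTCG, lay close to the summit. It is shown at chr3L:4614070-4614110 (minus strand) in Src64B, a Src-family tyrosine kinase gene, chr3L:441804-441844 (plus) in klar, whose product positions nuclei along microtubules, chrX:3837873-3837913 (minus) in ec and chr3L:21055907-21055947 (plus) in siz, which encodes a guanine nucleotide exchange factor for Arf proteins. Capitals mark the word.
Src64B: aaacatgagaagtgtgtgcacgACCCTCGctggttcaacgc
klar: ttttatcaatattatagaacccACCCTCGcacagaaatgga
ec: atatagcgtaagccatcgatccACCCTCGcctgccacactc
siz: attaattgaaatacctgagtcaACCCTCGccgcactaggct
All 4 have a C directly after the word, which 15 of the 25 near-TSS intronic sites of the word had. The pooled signals of the 4 peaks shown were 609 in Src64B, 569 in klar, 308 in ec and 221 in siz.

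The near-TSS intronic peaks were set against the amount of sequence in which such a peak could lie, to learn where in this zone they were dense. Near-TSS intronic sequence made up 18.3% of the arms, 24.5 Mb, and held 39.8 peaks per Mb (95% Poisson interval 37.4 to 42.4). Promoter sequence held 111 per Mb (107 to 116), deep introns 14.0 (12.7 to 15.5), intergenic sequence 13.5 (12.3 to 14.7) and the arms as a whole 29.8. Within the zone the density was 62.8 per Mb at 500 to 1000 bp from the TSS, 43.9 at 1000 to 2000 bp, 32.4 at 2000 to 3000 bp, 30.8 at 3000 to 4000 bp and 25.1 at 4000 to 5000 bp, each range without its lower limit. The first step, between 500 to 1000 bp (55.6 to 70.7) and 1000 to 2000 bp (39.1 to 49.1), exceeded the intervals, and so did the second, to 2000 to 3000 bp (27.8 to 37.6). The intervals of the outer 3 distances overlapped. The median distance to the nearest TSS was 1550.5 bp (interquartile range 920 to 2839).

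First introns held most of the peaks and had a higher density of them than later introns. A first intron of at least 1 transcript held 753 of the 978 summits, 77.0% (74.2 to 79.6), where 57.4% of the near-TSS intronic sequence is first intron. The density was 53.4 per Mb (49.7 to 57.4) in first introns and 21.5 (18.8 to 24.5) in introns that are never first. At 500 to 1000 bp it reached 75.98 in first introns (66.5 to 86.4), against 33.2 in later introns (24.2 to 44.4) and 30.1 in intergenic sequence at the same distance (24.0 to 37.2). At 4000 to 5000 bp it was 31.8 in first introns (23.8 to 41.6), against 19.1 in later introns (13.3 to 26.6) and 17.5 in intergenic sequence (12.6 to 23.6). At every distance the intervals of later introns and intergenic sequence overlapped, and those of first introns lay above both, except that they overlapped that of later introns at 4000 to 5000 bp. The median signal was 95.8 in first introns and 93.7 in later ones.

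**Figure D1:**
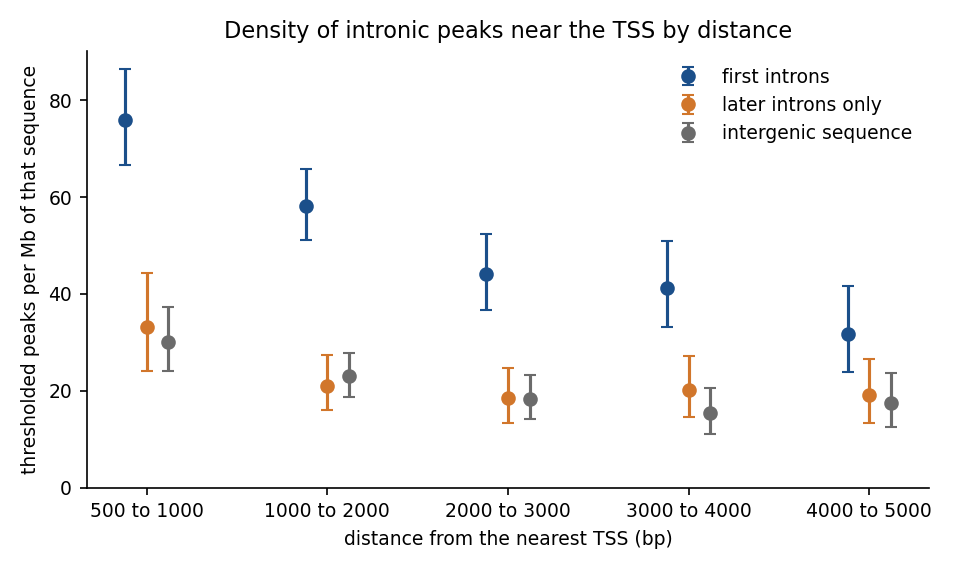
Thresholded peaks per Mb of sequence (vertical axis) by distance from the nearest TSS in bp (horizontal axis), for first introns, later introns only and intergenic sequence, with 95% Poisson intervals as bars. First introns run from 75.98 peaks per Mb at 500 to 1000 bp to 31.8 at 4000 to 5000 bp, while later introns and intergenic sequence overlap in their intervals at each distance.

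Among the arms, X carried the highest density of near-TSS intronic peaks, 47.1 per Mb (41.2 to 53.6), and chromosome 4 the lowest, 6.33 (0.767 to 22.9, from 2 peaks). Between them lay 2R with 41.2 (35.4 to 47.7), 3L with 40.2 (34.8 to 46.2), 3R with 39.1 (34.0 to 44.6) and 2L with 33.5 (28.4 to 39.4). The intervals of X and 2L did not overlap, and every other pair among the 5 large arms overlapped.

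The introns that held the peaks had a median length of 7090 bp (interquartile range 3286 to 14689). The summits lay a median of 1281.5 bp from the nearest exon edge, and 25 of 978 (2.56%) lay within 100 bp of one. None of the 978 summits lay in an annotated transposable element. The same values for near-TSS intronic sequence as a whole were not computed, so these do not set the peaks apart from it. The most frequent width was 430 bp, in 782 of the 978 peaks. Another thresholded summit lay within 1000 bp of 202 of them and within 250 bp of 88, so some windows at neighbouring summits share sequence.

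The nearest TSS was mostly a start of the host gene itself. It was the 5′-most TSS of a host for 316 peaks (32.3%), a further, internal TSS of a host for 478 (48.9%) and a TSS of another gene for 184 (18.8%). The summit lay downstream of that TSS in 632 cases (64.6%) and upstream in 346 (35.4%), and 878 of the TSSs (89.8%) belonged to protein-coding genes. The rule itself places each summit inside a gene, and the same shares of near-TSS intronic sequence were not computed. The median signal was 94.5 with the 5′-most TSS, 97.2 with an internal TSS and 94.2 with another gene's TSS, with wide overlap.

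A promoter peak stood at the nearest TSS of 198 of the 978 near-TSS intronic peaks, 20.2% (17.8 to 22.9). Of the near-TSS intronic sequence, 10.3% has such a bound TSS as its nearest. The density was accordingly 78.1 peaks per Mb (67.6 to 89.8) beside a bound TSS and 35.4 (32.99 to 38.01) beside one without a promoter peak. Intergenic peaks at the same distances had a bound nearest TSS in 47 of 344 cases (13.7%), so near-TSS intronic peaks had one more often by 6.58 percentage points (95% Newcombe interval 1.89 to 10.7). Deep intronic peaks had one in 70 of 397 cases (17.6%, 14.0 to 21.7), an interval that overlaps that of the near-TSS intronic peaks. By kind of TSS, the share was 26.9% at 5′-most TSSs (22.1 to 32.1), 18.6% at internal ones (15.2 to 22.4) and 13.0% at those of another gene (8.54 to 18.8). By distance it was lowest at 500 to 1000 bp, 13.0% (9.27 to 17.5), and highest at 1000 to 2000 bp, 27.3% (22.4 to 32.6). The share of sequence beside a bound TSS was not computed for the other classes, or by kind of TSS or distance. These contrasts between classes, kinds and distances are therefore not set against sequence. Of these 198 intronic peaks, 83 had the higher pooled signal and the other peaks were weaker than or equal to the promoter peak at that TSS. Where all 4 replicate values were at hand, the intronic peak was the stronger in both replicates in 63 of 191 pairs and the weaker in both in 87.

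Near-TSS intronic peaks had a median pooled signal of 95.8 (interquartile range 73.4 to 140.3, 60.6 to 1305 in all). Promoter peaks had 104 (76.9 to 165), deep intronic peaks 87.7 (71.2 to 122), intergenic peaks 91.6 (72.6 to 126) and all thresholded peaks 98.2. In replicate 1 the medians were 43.8 for near-TSS intronic peaks and 49.3 for promoter peaks, and in replicate 2 they were 55.6 and 57.5 for the same groups. The upper 25% of all thresholded peaks by signal held 224 near-TSS intronic peaks, 22.9% of them (20.3 to 25.7), and 602 promoter peaks, 29.8% of those (27.8 to 31.8). The ranges overlapped almost entirely, and 20 of the 100 strongest thresholded peaks were near-TSS intronic. In the pooled list before the threshold, 7412 regions met the same location rule, and 13.2% of them (12.4 to 14.0) entered the thresholded set, against 23.2% of promoter regions (22.3 to 24.1), 8.65% of deep intronic regions and 2.89% of exonic ones.

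The strongest 4 near-TSS intronic peaks stood apart from the rest in both replicates. The peak in CG11050 (chr2L:6612498-6612912) had a pooled signal of 1305, 579 in replicate 1 and 739.9 in replicate 2, with its summit in a second intron of 140 bp, 1030 bp downstream of an internal TSS. The peak in jumu (chr3R:10354126-10354680) had 1254, 589.9 in replicate 1 and 667 in replicate 2, with its summit in the first intron, 4240 bp downstream of the 5′-most TSS. The peak in spin (chr2R:16135239-16135703), which encodes a lysosomal membrane transporter, had 1249, 599.6 in replicate 1 and 646 in replicate 2, and the nearest TSS, 2853 bp away, was that of Got1, an aspartate aminotransferase gene. The peak in ush (chr2L:480882-481283) had 1164, 467 in replicate 1 and 684 in replicate 2, and the nearest TSS, that of the zinc finger gene cbt 1354 bp away, had a promoter peak of 324. All 4 ranked 14 or better among the 30000 regions of either replicate. A second summit, 199 bp away in the same ush region, had a signal of 119.9, with 64.4 in replicate 1 and no summit within 150 bp in replicate 2.

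The next group by signal ran from 745 to 448. Genes of transcription and chromatin were among the hosts: Trl had 745 (334 in replicate 1 and 405 in replicate 2), and trx, a histone H3 methyltransferase of the trithorax group, had 448 (206 and 244). In the same group were wde, a partner of a histone H3 lysine 9 methyltransferase, with 452 (187 and 260.3), Adf1, a Myb-related transcription factor, with 459.7 (158 and 303), and NFAT with 512 (210.2 and 304). Kinase genes were also among them. Lk6, whose product phosphorylates the translation factor eIF4E, had 739 (301 and 437), Src64B had 609 (276 and 331) and Tlk, the Tousled-like kinase, had 592 (247 and 347). The peak shared by chif, which encodes the activating subunit of the kinase that fires replication origins, and Hyls1 had 504 (202 and 293). The adherens junction gene cno had 479 (171 and 308), klar had 569 (282 and 288), CG32772 had 664 (282 and 384) and CG9663 had 647 (287 and 363). CG31635 had 496 (251 and 245), CG12769 had 483 (217 and 262) and the noncoding gene lncRNA:CR44931 had 500.8 (244 and 258). Of the 20 strongest, 3 had a promoter peak at the nearest TSS: ush, at cbt, and Src64B and CG31635, each at an internal TSS of its own gene. The promoter peaks there had 324, 243 and 329.7 in that order, below the intronic peaks. In replicate 2 the signal exceeded that in replicate 1 in 19 of these 20, CG31635 being the exception.

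Recovery in the replicates was close to that of the whole set. A region among the 3995 strongest of each replicate overlapped the peak by at least 0.5 of both lengths, in both replicates, for 616 of 978 near-TSS intronic peaks, 63.0% (59.9 to 66.0), against 63.8% of all thresholded peaks. The share was 66.3% for promoter peaks (64.2 to 68.4) and 59.2% for deep intronic ones (54.2 to 64.1). In 4 bins of like size by pooled signal the share was 21.6%, 80.3%, 88.1% and 62.0%, from the lowest bin to the highest. With an overlap of at least 1 bp it was 23.7%, 82.8%, 97.1% and 100%. The regions of the highest bin were narrower, with a median width of 272 bp and 31.8% at 430 bp, than those of the bin below it, 89.3% of which were 430 bp wide.

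For the level of signal, each peak was given the value of the region in a replicate whose summit was nearest within 150 bp. This gave values in both replicates for 962 of 978 near-TSS intronic peaks. Replicate 1 lacked 7 and replicate 2 lacked 9. Spearman's correlation between the replicates across these peaks was 0.698 and Pearson's r of the log2 signal was 0.768, as descriptions, since peaks of one library share its depth and preparation. Replicate 2 exceeded replicate 1 by a median factor of 1.29 (interquartile range 1.04 to 1.59). All thresholded peaks had a Spearman correlation of 0.685 and a median factor of 1.25.

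**Figure D2:**
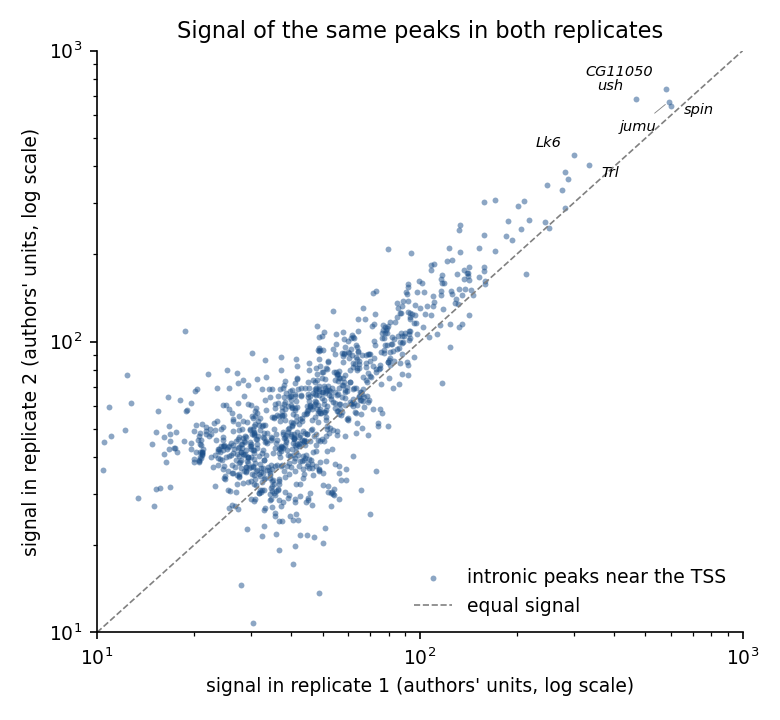
Signal of each near-TSS intronic peak in replicate 1 (horizontal axis) and replicate 2 (vertical axis), both in the authors' units on log scales, with the dashed line at equal signal and the 6 strongest peaks named by host gene. The 962 points lie mostly above the line, with a median factor of 1.29, and CG11050, jumu, spin and ush stand apart in both replicates.

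The host genes were counted next. An intron of 684 protein-coding genes held at least 1 of the peaks, 7.52% of the 9101 protein-coding genes that have any near-TSS intronic sequence. Genes differ widely in how much of it they have, with a median of 6982 bp in host genes and 457 bp in all eligible genes. Of genes with over 10000 bp, 37.6% (34.0 to 41.3) were hosts. The share was 21.9% at 5000 to 10000 bp, 13.7% at 2000 to 5000 bp, 4.69% at 500 to 2000 bp and 0.212% at 1 to 500 bp. Genes with a promoter peak were hosts more often, 262 of 1897 (13.8%), than genes without one, 422 of 7204 (5.86%), a difference of 7.95 percentage points (6.37 to 9.66). The difference was 26.7 points (18.7 to 34.4) among genes with over 10000 bp and 13.7 points (8.45 to 19.5) among those with 2000 to 5000 bp. At 500 to 2000 bp it was 2.04 points, with an interval from -0.297 to 5.01.

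Most host genes, 479 of 684, held 1 peak, 127 held 2, 51 held 3 and 27 held 4 or more. CG1677 on X, annotated at chrX:7281089-7405797, held 12, with signals from 68.5 to 263. None of them had its nearest TSS at CG1677. The nearest TSSs belonged to unc-119 (5 peaks), CBP, CG42780, brk, Dok and Atg5. The zinc finger gene shn, a partner of the Smad proteins in BMP signalling, held 10, with signals from 63.1 to 226 and a median of 87.3. CHES-1-like, a forkhead factor gene, held 8, with the higher median of 162 (86.6 to 316), in 14663 bp of near-TSS intronic sequence. The 7 in ush ran from 79.4 to 1164 and the 7 in Tlk from 64.9 to 592, and all 7 of Tlk were matched in both replicates. The corepressor gene sbb, the chromatin gene tou and aop, an ETS repressor gene downstream of Ras, held 5 each. In aop the 5 lay in 9148 bp, or 5.47 per 10 kb, close to the 5.46 per 10 kb of CHES-1-like and above the 2.06 of CG1677.

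The gene lists describe which kinds of genes were hosts, and 25 lists were counted against 7.52% of all eligible protein-coding genes. Because genes differ in near-TSS intronic sequence, the peaks per Mb of that sequence in each list's genes are given too, and all eligible genes had 40.5. The signalling lists are given first, and their intervals overlapped one another. In the EGFR, FGFR and Ras list 11 of 27 eligible genes were hosts (40.7%, 22.4 to 61.2), with 98.9 peaks per Mb. They were the ligands Krn and ths, the receptor Egfr, the processing protease ru, the adaptor drk, the kinase Raf, the inhibitors aos and sty, and the nuclear factors aop, pnt and edl. Raf had the highest peak of them, 378 (133 in replicate 1 and 252 in replicate 2). The peak of edl, whose product binds ETS factors of the pathway, had 246 (111 and 137), and that of aos, a secreted EGFR inhibitor, had 232 (91.5 and 146). At edl and aos the nearest TSS also had a promoter peak, and at Raf it had none.

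In the BMP and activin list 6 of 17 were hosts (35.3%, 14.2 to 61.7), with 109 peaks per Mb. They were the receptors tkv and wit, the extracellular regulators sog and magu, the Smad gene Mad with a peak of 231 (96.7 and 134) and shn. In the JAK STAT list 5 of 11 were (45.5%, 16.7 to 76.6), with 87.4 per Mb: the ligand upd3, the transcription factor Stat92E with 114 (60.6 and 61.8), the negative regulators Socs36E and Ptp61F, and ken, a transcriptional repressor, with 170.3 (86.8 and 84.5). In the Hedgehog list 4 of 16 were, dlp, rdx, boi and ptc, and dlp, a glypican gene, had 174 (91.1 and 84.9). In the Wingless list 5 of 21 were, led by nkd, an inhibitor of the pathway, with 131 (58.0 and 74.8). In the Notch list 2 of 15 were, mam, a coactivator of Notch, with 307 (141 and 169), and neur, a ubiquitin ligase, with 189.6 (79.8 and 113). The Hippo list had 3 of 15 and the insulin and Tor list 2 of 16, the receptor gene InR with 249 (91.7 and 158) and Pi3K92E with 72.6 (24.2 and 49.9). The intervals of the Hedgehog (7.27 to 52.4), Notch, Hippo and insulin lists included 7.52%. The share of the Hedgehog list exceeded that of the genes outside it by 17.5 percentage points (2.69 to 42.0), without regard to length. Its genes had a median of 2836 bp of near-TSS intronic sequence, against 457 bp in all eligible genes. Per Mb these 4 lists had 56.5 (Hedgehog), 46.4 (Notch), 81.1 (Hippo) and 65.9 (insulin and Tor), and the Wingless list had 36.6.

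Among the lists on transcription factors, chromatin and the ecdysone response, the ecdysone list had the highest share of hosts, 7 of 14 (23.04% to 76.96%). Its genes, however, had a median of 13726.5 bp of near-TSS intronic sequence. Per Mb the list had 45.8 peaks, close to the 40.5 of all eligible genes. Its hosts were the receptor EcR, the nuclear receptor genes Hr4, Hr3 and Eip75B, the zinc finger gene br, Eip63E and Eip63F-1. The peak of Hr4 had 221 (92.2 in replicate 1 and 126 in replicate 2), that of Eip63E, a cyclin-dependent kinase gene, 195 (77.1 and 114) and that of Hr3 142 (49.1 and 93.9). The nuclear receptor list, which shares 4 of these hosts, had 5 of 18 and 46.2 peaks per Mb. The homeodomain list had 4 of 41 (9.76%, 2.72 to 23.1) and 17.4 per Mb, with Antp with 124 (52.9 and 67.4), Abd-B with 121 (63.0 and 57.5), hth with 65.0 (24.0 and 41.6), and Ubx. The forkhead list had jumu and CHES-1-like, 2 of 9, and the GATA list had ush, 1 of 6, and with their several peaks these lists had 296 and 113 peaks per Mb. Of the chromatin lists, remodelling and modification had 7 of 32 (21.9%, 9.28 to 39.97) and 126 per Mb, led by Sin3A, a corepressor gene, with 263 (142 and 124), and the Polycomb and trithorax list had 4 of 31 and 85.1 per Mb, trx, ph-p, kis and brm. The intervals of the homeodomain, forkhead, GATA and Polycomb and trithorax lists included 7.52%.

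Lists of genes that shape cells and guide axons come next, and the values per Mb of single lists rest on few peaks and were not tested against one another. The cytoskeleton list had 10 of 33 hosts (30.3%, 15.6 to 48.7) and 82.0 peaks per Mb, from 15 peaks, led by Dhc64C with 305 (130.2 in replicate 1 and 171 in replicate 2), and tsr, the cofilin gene, with 201.07 (66.7 and 130.5). The axon guidance list had 9 of 30 and 44.3 per Mb, from 14 peaks, led by NetA, a netrin gene, with 162 (81.0 and 83.2), and the adhesion list had 9 of 35 and 29.7 per Mb, from 14 peaks. Regulatory RNA-binding proteins had 15 of 36 (41.7%, 25.5 to 59.2), but 39.4 peaks per Mb, near the value of all eligible genes. Among these were brat with 235 (104 and 124), the splicing regulators ps with 178 (82.8 and 92.9) and Rbfox1 with 148 (62.1 and 84.4), and Sxl, pum, mbl and elav. The muscle list had 5 of 29, led by mbc, a myoblast fusion gene, with 209.6 (48.1 and 113), membrane trafficking 3 of 31, glycosylation 4 of 33 and the insulator list 1 of 12, Trl. Per Mb these had 40.04 (muscle), 78.2 (trafficking), 20.9 (glycosylation) and 251 (insulator, from 3 peaks in Trl). The intervals of these last 4 lists included 7.52%. The share of the muscle list exceeded that of the genes outside it by 9.76 percentage points (0.0971 to 27.1), without regard to length. Its genes had a median of 5809 bp of near-TSS intronic sequence and 17.2% hosts. Of all eligible genes with 5000 to 10000 bp, 21.9% were hosts.

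A pair of lists held no host. None of 31 eligible ion channel and synaptic genes was one (0%, up to 11.2), with a median of 7592 bp of near-TSS intronic sequence. None of 27 eligible cytoplasmic ribosomal protein genes was one (up to 12.8), and their median was 102 bp. Both intervals include 7.52%. Both lists thus had 0 peaks per Mb, but over 289 kb of such sequence in the channel and synaptic genes and 5.34 kb in the ribosomal genes. All eligible genes had 40.5 peaks per Mb, so 5.34 kb is too little to show a shortage. Promoter peaks stood at 13 of those 27 ribosomal genes and at 1 of the 31 channel and synaptic genes, against 20.8% of all eligible genes.

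**Figure D3:**
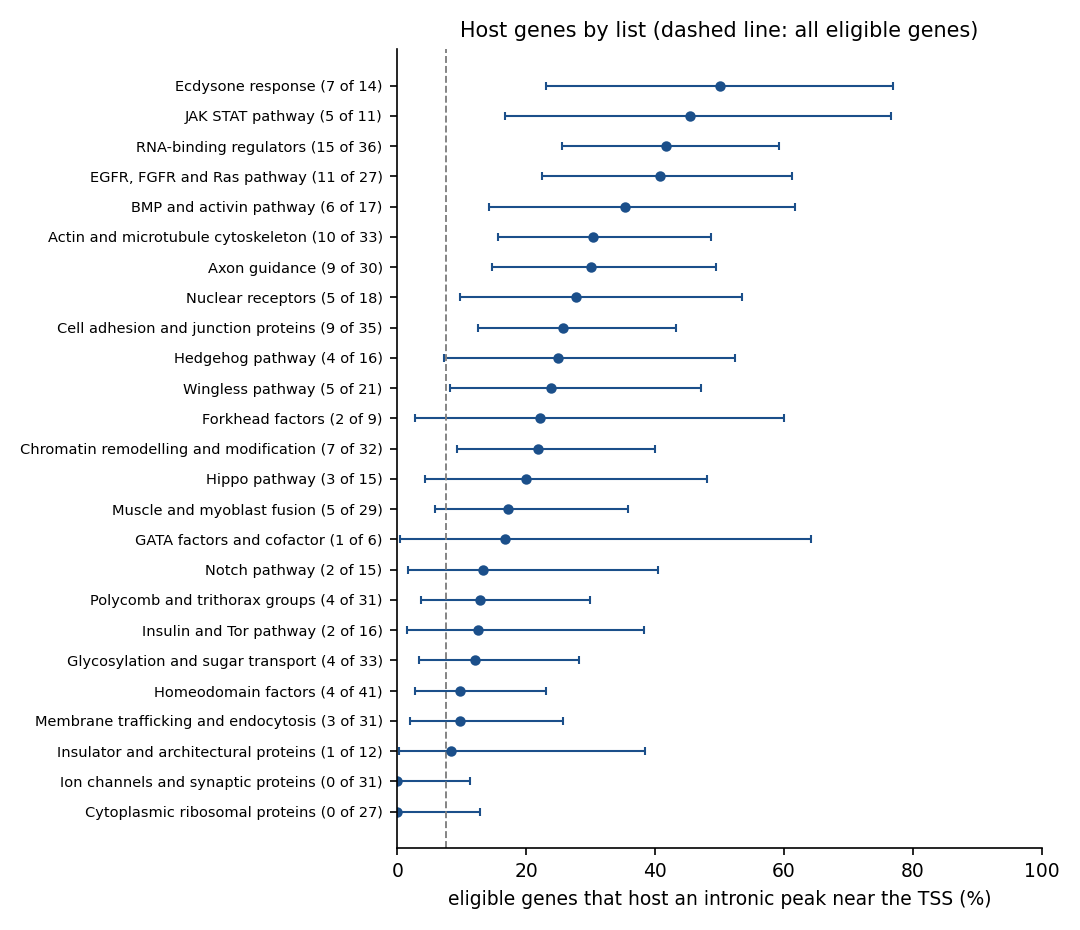
Share of the eligible protein-coding genes of each list that host a near-TSS intronic peak (horizontal axis, %), with 95% binomial intervals and the host count beside each list, and with the dashed line at 7.52% for all eligible genes. The ecdysone response list stands highest, with 7 of 14, and the ion channel and ribosomal protein lists at 0%.

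Base composition fell to a minimum at the summits. The mean G+C content of the central 51 bp was 32.3% ± 10.1 (SD over 978 peaks), against 40.6% ± 11.4 at 1000 bp downstream, and 673 summits (68.8%) were lower than their own flank. Promoter peaks had 32.4% ± 11.4 at the summit and 44.3% at the flank, so the summits of both classes were alike while their surroundings differed. Deep intronic peaks had 32.2% and 39.5%, and intergenic peaks 33.3% and 40.9%. The 6434 near-TSS intronic regions of the pooled list outside the thresholded set had 36.0% ± 11.0 at the summit and 40.9% at the flank. Over the 4 bins of the 978 peaks by signal the summit mean ranged from 31.8% to 33.2%, with no order.

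**Figure D4:**
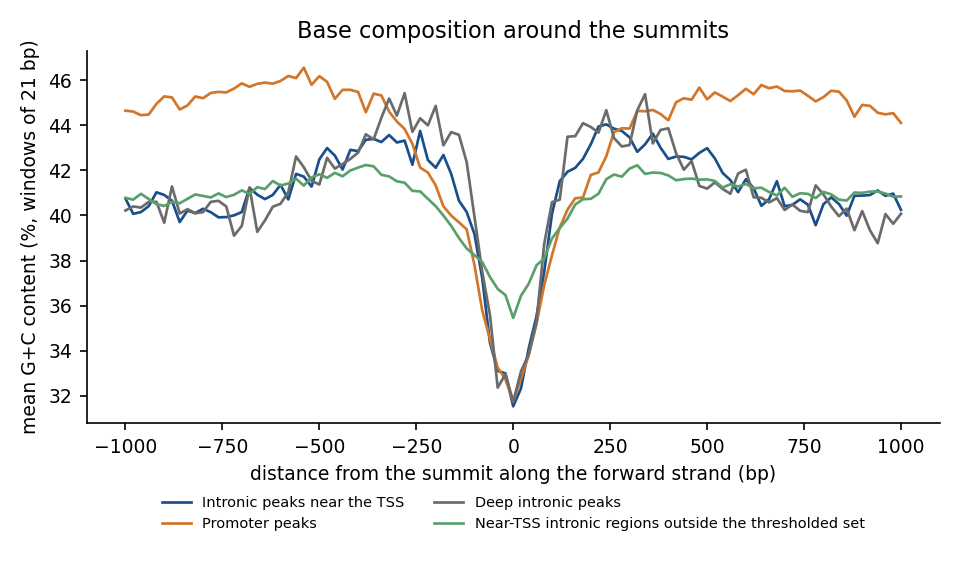
Mean G+C content in windows of 21 bp (vertical axis, %) by distance from the summit in bp (horizontal axis) for near-TSS intronic peaks, promoter peaks, deep intronic peaks and near-TSS intronic regions outside the thresholded set. All 4 curves have their lowest values at the summit, 31.5% for near-TSS intronic peaks, 31.7% for promoter and deep intronic peaks and 35.5% for the regions outside the set.

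Sites of known factors were counted on both strands in the summit base with 50 bases on each side, and in a window of the same length centred 1000 bp downstream on the forward strand, and compared by the exact McNemar test with Benjamini-Hochberg adjustment over 27 motifs. Of the 27, 7 passed the threshold of 0.05 (25.9%), 2 of them more frequent at the summits and 5 less frequent. The shares below for all windows are over 242989 windows of the same length across near-TSS intronic sequence. The TATA element TATAAAA lay in 105 summit windows and 53 flank windows (adjusted p = 0.000205, exact McNemar test) and in 5.38% of all windows. The call was lost in 1 of 10 alternatives, in windows of 51 bp (adjusted p = 0.286, exact McNemar test). Its share at the summits, 10.7%, differed from the 11.3% of promoter summits by -0.589 percentage points (95% interval -2.90 to 1.88). TATAAAA holds no G or C, and many such words were more frequent at the summits. Of the 7-mers with at most 1 G or C that passed the test below, 64 were more frequent there and 0 less. ATTTTAA, for example, lay in 162 summit and 54 flank windows. The part of G+C content in the TATAAAA call was not tested. The forkhead site TGTTTAC lay in 47 and 25 windows (adjusted p = 0.0445, exact McNemar test), 2.38% of all, and this call was lost in all 10 alternatives, with adjusted p from 0.123 to 0.993.

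The GAGA factor site GAGAGAG was nearly absent from the summits. It lay in 2 summit windows and 35 flank windows (adjusted p = 2.77e-07, exact McNemar test), against 1.44% of all windows, and this was the only one of the 7 calls kept in all 10 alternatives. Both summits that held it were weak, with a median signal of 63.3. Promoter summits held it in 1.48% of 2022 windows and their flanks in 1.78%, and the share at near-TSS intronic summits differed from that at promoter summits by -1.28 percentage points (-1.92 to -0.583). Deep intronic summits held it in 1 of 397 windows (0.252%), a difference of -0.0474 points (-1.22 to 0.529). The CA repeat CACACACA lay in 10 summit and 34 flank windows (adjusted p = 0.00349, exact McNemar test), 2.56% of all windows. The Pho site GCCATTT lay in 13 and 34 (adjusted p = 0.0166, exact McNemar test), 3.14% of all. The E-box CAGCTG lay in 21 and 45 (adjusted p = 0.0188), 3.64% of all, and the CT repeat TCTCTCTC, which shares letters with GAGAGAG on the other strand, in 2 and 14 (adjusted p = 0.0188), 0.706% of all, each by the exact McNemar test. These 4 calls were lost in 2 to 6 of the 10 alternatives. G+C content falls at the summits, and its part in these contrasts was not tested.

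Of the elements known from fly promoters, DRE, CGATA and Motif 1 were less frequent at near-TSS intronic summits than at promoter summits, while for TATAAAA, above, and Motif 6 the intervals of the difference included 0. The DRE, TATCGATA, which binds Dref, lay in 1 of 978 windows (0.102%), against 49 of 2022 promoter summits (2.42%), a difference of -2.32 percentage points (-3.09 to -1.57). The BEAF-32 core CGATA lay in 10.8% of near-TSS intronic summits and 17.5% of promoter summits, a difference of -6.67 points (-9.16 to -4.03). Motif 1, GGTCACAC, the site of M1BP, lay in 0.102% and 0.989%, a difference of -0.887 points (-1.43 to -0.298). Motif 6, GGTATTTT, lay in 1.02% and 1.43% (-0.412 points, -1.19 to 0.542), and in 0.630% of all near-TSS intronic windows. DRE lay in 0.211%, CGATA in 10.8% and Motif 1 in 0.140% of all near-TSS intronic windows, within the intervals of the intronic summits.

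Every 7-mer, with both strands merged, was then compared in the same windows, and 93 of 8192 passed the threshold (1.14%), 70 more and 23 less frequent at the summits. Of the 70, 64 contained at most 1 G or C, and the part of the lower G+C content at the summits in this was not tested. ATTTTAA, in 162 summit and 54 flank windows, had the smallest adjusted p (6.69e-11, exact McNemar test). The remaining 6 were CAGTGTA with 34 summit and 8 flank windows (adjusted p = 0.00911), GTACACA with 32 and 9 (adjusted p = 0.0365), ACCCTCG with 25 and 5 (adjusted p = 0.0380), CTTGAAA with 47 and 18 (adjusted p = 0.0388), AGATCAT with 20 and 3 (adjusted p = 0.0471) and AAACCTA with 27 and 7 (adjusted p = 0.0471), each by the exact McNemar test over 8192 7-mers. The CAGTGTA call was lost in 3 of 10 alternatives, with adjusted p from 1.12e-10 to 1 over the 10 by the same exact test. The 889 deep intronic and intergenic peaks, whose sequences had no part in this choice, were tested in the same way. There ACCCTCG passed, in 37 summit and 5 flank windows (adjusted p = 0.000605, exact McNemar test), and CAGTGTA, in 27 and 7, did not (adjusted p = 0.0742, same test). The other 4 had adjusted p from 0.311 to 1 by the same exact test. At promoter summits, where 1640 of the 8192 7-mers passed (20.02%), CAGTGTA (38 and 14, adjusted p = 0.0104) and CTTGAAA (68 and 38, adjusted p = 0.0265) passed the exact test, and ACCCTCG was found in 19 summit and 18 flank windows.

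ACCCTCG was more frequent at summits away from promoters. It lay in 2.56% of near-TSS intronic summits (1.66 to 3.75), 5.54% of deep intronic ones (3.51 to 8.27), 3.05% of intergenic ones (1.72 to 4.98) and 0.940% of promoter summits (0.567 to 1.46). The share at near-TSS intronic summits exceeded that at promoters by 1.62 percentage points (0.645 to 2.85). It differed from that at deep intronic summits by -2.99 points (-5.81 to -0.782) and from that at intergenic ones by -0.493 points (-2.58 to 1.19). Near-TSS intronic regions outside the thresholded set held it in 42 summit and 44 flank windows of 6434. In 18 of the 25 near-TSS intronic peaks the middle of the word lay within 25 bp of the summit. Sites were sought only within 50 bp on each side and the nearest was kept, so part of this closeness is set by the window. The median signal of the 25 was 132, against 94.7 for the others, and 1 of the 25 had a promoter peak at its nearest TSS. The call among near-TSS intronic peaks was lost in 8 of 10 alternatives, with adjusted p from 0.0220 to 0.229 (exact McNemar test).

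The bases around ACCCTCG were alike beyond the word itself. Among the 25 near-TSS intronic sites, 9 positions within 20 bp had 1 base that was common to at least 45% of the sites and above its share at all such words. They were T at 17 bases before the word, A, A, C and T at 13, 12, 11 and 10 before it, T at 7, A at 4, C at 2, and C directly after it. The A at 12 was present in 20 of the 25 sites and the C at 2 in 19. The letters were read from these 25 sites, which matched 5.84 ± 1.52 of the 9 (SD) for that reason. The 37 deep intronic and intergenic sites, which were not used, matched 5.65 ± 1.23. The 19 promoter sites matched 4.32 ± 2.33, the 42 sites in regions outside the thresholded set 3.71 ± 2.24, and all 1233 ACCCTCG sites of near-TSS intronic sequence 2.59 on average. In deep intronic and intergenic sequence the share of ACCCTCG sites that lay at a thresholded summit was 0 of 209 with no letter matched, 0 of 600 with 1, 0.112% with 2 and 0.129% with 3. It was 1.06% with 4, 4.28% with 5, 9.32% with 6 (15 of 161, 5.31 to 14.9) and 18.4% with 7 or more (9 of 49, 8.76 to 32.0). The intervals with 6 and with 7 or more letters overlapped, and both lay above those with 3 or fewer.

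The side of the summit on which a word lay was examined after CAGTGTA was seen to lie mostly to one side. Each 7-mer, read on its own strand, was counted in the 100 bp that begin 26 bp after the summit and in the same stretch before it. A word and its reverse complement make 1 test, named by the spelling that lay more often after the summit, and 56 of 8192 passed by the exact McNemar test (0.684%). CAGTGTA lay after the summit in 85 near-TSS intronic peaks and before it in 6 (adjusted p = 4.74e-15, exact McNemar test). CCACTGT lay after it in 94 and before it in 21 (adjusted p = 1.84e-09, exact McNemar test). Other words among the 56 overlap these or are rich in T and C, such as TCAGTGT (71 after and 5 before), CACTGTA (72 and 14), TTTTTTC (139 and 38) and TTTTTCT (120 and 31), and 10 of the 56 contain CAGTG.

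The same words had the same side in promoter, deep intronic and intergenic peaks, which were not used to find them. In promoter peaks CAGTGTA lay after the summit in 88 and before it in 14 of 2022 (adjusted p = 5.38e-11), and CCACTGT in 119 and 19 (adjusted p = 5.69e-15), by the exact McNemar test. In the 889 deep intronic and intergenic peaks CAGTGTA lay after the summit in 81 and before it in 4 (adjusted p = 8.08e-17), and CCACTGT in 74 and 9 (adjusted p = 9.02e-11), each by the exact McNemar test over 8192 7-mers. In promoter peaks 58 of 8192 7-mers passed (0.708%), and 17 of them were among the 56. In deep intronic and intergenic peaks 75 passed (0.916%), and 35 of them were among the 56. The replicates' own lists come from the same libraries as the 978 peaks, so their counts are no independent evidence. There CAGTGTA lay after the summit in 84 and before it in 12 of the 1005 near-TSS intronic peaks of replicate 2. In replicate 1 it lay in 68 and 6 of the 936. CCACTGT lay in 99 and 19 in replicate 2 and in 85 and 20 in replicate 1.

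Either word lay after the summit in 177 of 978 near-TSS intronic peaks, 18.1% (15.7 to 20.7), and before it in 27, 2.76%. Both were present after the summit in 2. In promoter peaks either word lay after the summit in 10.2% (8.90 to 11.6) and before it in 1.58%, so near-TSS intronic peaks had it after the summit more often by 7.91 percentage points (5.23 to 10.7). Deep intronic peaks had 17.1% and 1.26%, and intergenic peaks 17.3% and 1.63%, and the intervals of their differences from near-TSS intronic peaks included 0. In the near-TSS intronic regions outside the thresholded set the shares were 5.07% and 2.36%, and the share after the summit was higher in the thresholded peaks by 13.0 points (10.7 to 15.6).

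Within 300 bp on either side, both words were densest in the 25 bp centred 75 bp after the summit of near-TSS intronic peaks. CAGTGTA had 3.17 sites per 100 peaks there, against 0.511 at the summit and 0.511 at 150 bp after it. CCACTGT had 4.29 there, against 0.511 at the summit and 1.64 at 150 bp. The 10 bases before CAGTGTA were T or C in 69.8% ± 16.8 (SD) in the 91 near-TSS intronic sites, 68.2% in promoter sites and 76.3% in deep intronic and intergenic sites, against 55.9% ± 20.1 at all 2407 CAGTGTA sites of near-TSS intronic sequence. Before CCACTGT they were T or C in 51.3% of the 119 near-TSS intronic sites and in 53.8% of all 3123 sites, so this word had no such stretch.

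**Figure D5:**
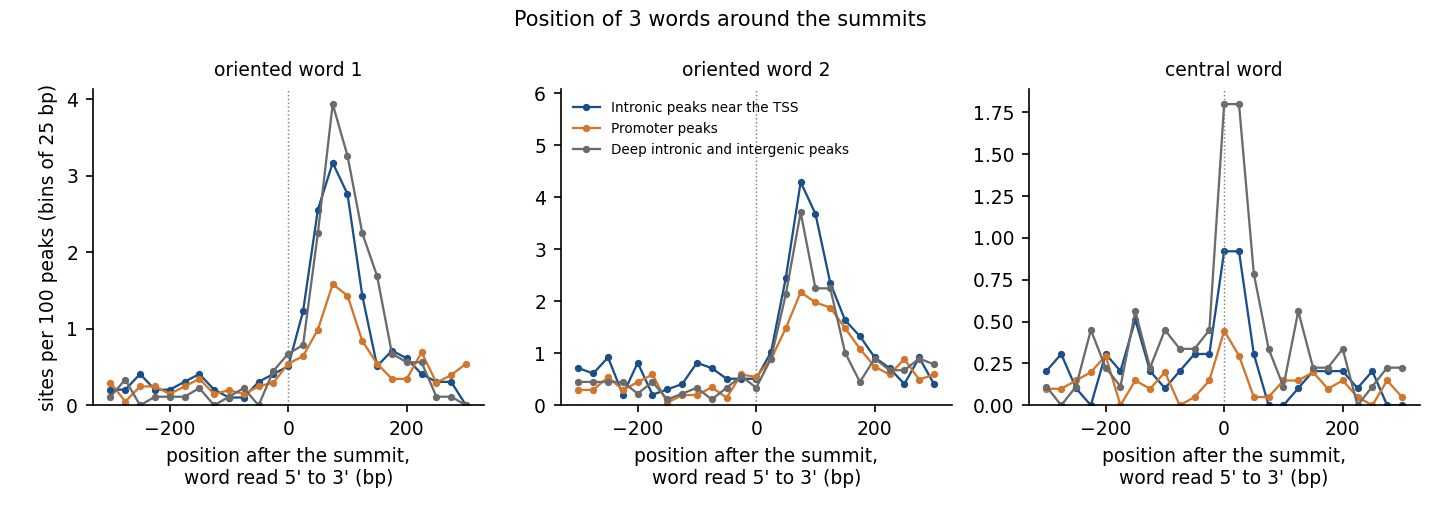
Sites per 100 peaks in bins of 25 bp (vertical axis) by position after the summit in bp, read on the strand of the word (horizontal axis), for CAGTGTA (oriented word 1), CCACTGT (oriented word 2) and ACCCTCG (central word) in near-TSS intronic, promoter, and deep intronic and intergenic peaks. Both oriented words peak on the side after the summit, with 3.17 and 4.29 sites per 100 near-TSS intronic peaks at 75 bp. The central word is highest in the bins at 0 and 25 bp, with 0.920 sites per 100 near-TSS intronic peaks in each.

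CAGTGTA showed no order by signal among the near-TSS intronic peaks. It lay after the summit in 6.88% to 13.9% of the peaks on each of the 5 large arms, with intervals that overlapped, and in 7.76%, 9.84%, 8.61% and 8.57% of the 4 bins by signal, lowest to highest. The median signal was 95.4 in the 85 peaks with it and 95.8 in the others. CCACTGT lay there in 9.80%, 6.56%, 7.38% and 14.7% of the same bins, and the intervals of the second bin (3.79 to 10.4) and the highest (10.5 to 19.8) did not overlap. On X it lay after the summit in 35 of 228 peaks (15.4%, 10.9 to 20.7), and on the other large arms in 6.71% to 9.44%, with intervals that overlapped that of X. ACCCTCG lay in these side windows after the summit in 6 peaks and before it in 7. The windows begin 26 bp from the summit and leave out most sites of this word. Nearer to the summit, the bins centred at 0 and 25 bp after it had 0.920 sites per 100 peaks each, against 0.307 at 25 bp before it. In deep intronic and intergenic peaks the same bins had 1.80 each, against 0.450. The side of ACCCTCG within these bins was not tested.

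The peaks next to the limits of the rule show how it drew its borders. Just inside the limit of 500 bp lay peaks in ush and CG4496, both at 503 bp, with signals of 79.4 and 335, and just outside it peaks at cu (496 bp, 84.6) and jar (498 bp, 173). Just inside 5000 bp lay peaks in ush (4980 bp, 192) and CG30015 (4997 bp, 70.6), and just outside it peaks in cno (5001 bp, 114) and ed (5009 bp, 87.3).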

How the data were processed

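ChIP-seq peaks of CG18476-eGFP embryos, 1 group of 2 replicates, were read from the dm6 lists. The authors, per the deposited README texts, called regions per replicate and on pooled reads, each against a control, and kept a thresholded set by IDR. The signal per region is the authors' deposited value. The deposited −log10 q values were used only to describe the lists. Aligner, caller, their versions, the IDR threshold and depth were not given in the sources used here. Lists in dm3 were not used. Columns of no known sample numbered 0.

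Genes, exons and TSSs came from Ensembl release 115 (18164 genes, without transposable elements), and sequence from RefSeq's Release 6 plus ISO1 MT. All positions are 1-based. Values came from SciPy 1.17.1, pandas 2.3.3 and NumPy 2.4.6 under Python 3.11.15, and plots from Matplotlib 3.10.9. Intervals are 95%: exact binomial (Clopper-Pearson) for shares, exact Poisson for densities and Newcombe for differences of shares. Motifs and 7-mers were compared by the exact McNemar test, two-sided, with Benjamini-Hochberg adjustment. The tests were run on simulated windows with planted words, with the same base composition at summit and flank. Those windows cannot show what the lower G+C content at the real summits does to the calls. With 1 group, no test between groups was possible.

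The peaks, gene lists and motifs were chosen with earlier results of these data known. Of 631 listed gene symbols, 11 matched no gene and 22 matched by synonym. Some listed genes are not reported here. Named are the hosts and nearest genes of the 20 strongest peaks, up to 3 hosts per list of highest signal, the 8 hosts with most peaks and the peaks at the limits. Other hosts, the 7-mers and their sites, the comparison of sides and the matching of replicate summits were chosen after their values were seen. Alternatives were each replicate's own list, the upper part of the set, other distance limits, midpoints, coding genes only, other windows, flanks and overlaps.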

Additional observations from a re-analysis of the deposited data

How the results depend on the processing

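In the upper 1997 peaks by signal, the count of near-TSS intronic peaks was 472, the median signal 143, the density 19.2 per Mb, the share of host genes 4.29% and the share with a bound nearest TSS 12.7%, with 15 7-mers past the threshold and 27 by side of the summit. For that 12.7% only promoter peaks of the upper part were counted. With all promoter peaks the share was 22.9%, 16.8%, 18.0% and 23.3% in the 4 bins by signal, lowest to highest. From 1 replicate's own list at a time, the median signal was 45.1 to 53.5 on that replicate's scale, the share with a bound nearest TSS 19.5% to 23.4%, the motifs 3 to 5, the 7-mers 41 to 82 and those by side 37 to 60. The share matched was 72.3% to 81.6% in a single replicate, 75.9% with 1 bp of overlap, 48.0% with 0.8 of both lengths and 87.4% against all listed regions. With a lower limit of 1000 bp, which also widens promoters, the density was 34.8 per Mb, the share with a bound nearest TSS 33.1%, and 2 motifs and 47 7-mers passed. With an upper limit of 3000 bp the density was 45.2 per Mb, hosts 6.33%, first introns 80.6% and 7-mers 35. Windows of 51 bp gave 1 motif and 20 7-mers, windows with 100 bp on each side of the summit gave 219 7-mers, the other flank gave 4 motifs and coding genes only gave 56 7-mers. The inner 50 bp and the outer 50 bp of the side windows gave 19 and 14 7-mers. The cause of these moves was not tested. Some alternatives hold fewer peaks, such as the 472 of the upper part, while those with other windows or the other flank used the same 978. CAGTGTA and CCACTGT kept their side in all 5 alternatives run for them, with adjusted p up to 1.22e-05 and 0.0292 (exact McNemar test). None of the results recomputed here changed direction. The host lists, the densities by arm and by distance, the class differences and the letters around ACCCTCG were not recomputed. No paired analysis was possible because there is 1 group. Depth is unknown, so weak peaks cannot be given an error from counting reads.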
